A study of Schizosaccharomyces pombe with 39 samples.

Results

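The genes examined were epe1, lid2, msc1, jmj1, jmj2 and jmj3, which encode proteins of the JmjC family in the fission yeast Schizosaccharomyces pombe. They were chosen by name, as 6 of the 6745 genes in the deposited count tables, and all 6 were among the 6521 genes present in every table. Each was followed through 39 RNA sequencing libraries in 13 groups of 3. The row of epe1 shares its locus with prl67, a non-coding RNA on the opposite strand, so the counts of prl67 were subtracted from those of epe1 before any comparison.

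The JmjC domain is the catalytic fold of a large family of histone lysine demethylases, which remove methyl groups with iron and 2-oxoglutarate as cofactors. In fission yeast, Epe1 is known as the factor that opposes heterochromatin: it is brought to heterochromatin by the HP1 protein Swi6, limits spreading of histone H3 lysine methylation past the domain borders, and is removed from domain bodies through the Cul4-Ddb1-Cdt2 ubiquitin ligase. Lid2 is a demethylase acting on the methylated H3 tails of active chromatin, Msc1 was first known as a multicopy suppressor of a chk1 mutant, and the reference annotation places Msc1 in the Swr1 complex and Jmj3 in the Lid2 complex.

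All libraries came from mst2D cells, which lack the acetyltransferase gene mst2. The degron allele was nmt81-epe1-3xFLAG-AID, that is, epe1 under the thiamine-repressible nmt81 promoter with an auxin-inducible degron, and the TIR1 proteins OsTIR1 and AtTIR1-2NLS were expressed as skp1 fusions from the adh15 promoter at ade6. TN, a mixture of thiamine and 1-naphthaleneacetic acid (an auxin analogue), was the depletion treatment, so it was directed at both the epe1 transcript and the Epe1 protein. Only RNA was measured here. The time course held the degron strain at 0, 24, 48, 72, 96 and 120 h of TN. The memory experiment held the same strain untreated, after 120 h of TN, at 24 h and 48 h of recovery once TN was removed, and at the end of a second depletion, in which TN was given again for 24 h to cells that had recovered for 24 h. The titles were followed for the recovery and second depletion libraries, whose treatment label names no agent. The deletion strain, mst2Depe1D, was labelled as untreated and had 3 libraries from biological replicate 1 and 3 from biological replicate 2. Cultures were grown to log phase at 32 °C in EMMC, a defined minimal medium. No library came from TN-treated cells without the degron, so TN itself and the loss of Epe1 cannot be told apart in any TN comparison. Nothing in the labels says that the 3 libraries of a group came from separate cultures, so p-values measure the spread between these libraries.

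A time course library held 20347886 to 26976973 counts, a memory library 14781022 to 21626064 and a deletion library 20733636 to 27900659. Levels are given as CPM, with library sizes scaled by TMM within a table, and levels of different tables are only set side by side. In the memory experiment the trend of counts with the GC content of genes differed between libraries, with Spearman's rho across genes from -0.579 to 0.644, against -0.141 to 0.143 in the time course. These genes are not independent replicates, and no p is given for such a trend. The second depletion libraries had rho values of 0.006, 0.644 and 0.531, and replicate 2 of that group also had the fewest counts and a TMM factor of 0.629, while the factors of all other libraries lay between 0.878 and 1.119. As a check of mating type, the summed level of 5 M-type genes ranged from 119 to 1228 CPM over all libraries and that of 3 P-type genes from 261 to 497 CPM. In the deletion strain the M-type sum was 152 to 172 CPM in biological replicate 1 and 1068 to 1228 CPM in biological replicate 2.

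The gene epe1 (SPCC622.16c) lies on the minus strand of chromosome III, from 1431048 to 1435036 in the build of the files, ASM294v2, and is a single exon in the reference annotation. The row prl67, on the plus strand from 1431135 to 1433068, lies wholly inside it and covers 48.5% of its length. The counts of prl67 never exceeded those of epe1 in the 39 libraries and made up a median of 84.6% of them. What was left, the counts over the remaining 2055 bases, is called epe1 outside prl67. Over the shared stretch reads of epe1 and of prl67 cannot be told apart, so the prl67 row may also hold epe1 reads. The following stretches of the epe1 sequence, from RefSeq assembly ASM294v3, show where the uncovered part of the gene begins and ends in its coding sequence. The first, at III:1434486-1434545 on the minus strand, is the start of the coding sequence, with the start codon in capitals. The second, at III:1433039-1433098 on the minus strand, lies further downstream in the coding sequence and crosses the edge of prl67, with the bases that prl67 covers in capitals.

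epe1 coding start: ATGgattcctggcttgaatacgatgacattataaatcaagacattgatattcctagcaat

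epe1 at the edge of prl67: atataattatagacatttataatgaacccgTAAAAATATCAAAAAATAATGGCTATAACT

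Everything upstream of the capitals in the second stretch was counted for epe1 outside prl67, and reads that crossed the edge were removed with the counts of prl67. In bulk RNA, fewer cells with a transcript and less transcript per cell cannot be told apart.

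In the time course, epe1 outside prl67 fell within 24 h of TN and stayed low to 120 h. It stood at 74.6, 86.2 and 89.7 CPM in the 3 libraries at 0 h. At 24 h the values were 36.3, 40 and 30.4 CPM, and at 48 h they were 39.3, 41.1 and 40.7 CPM. The highest of these treated libraries lay 33.5 CPM below the lowest library at 0 h. At 72 h the libraries stood at 32, 35.1 and 28.4 CPM, at 96 h at 33.4, 33.1 and 28.4 CPM, and at 120 h at 34.1, 29.2 and 30.8 CPM. No treated library overlapped the 0 h group. As a share of the 0 h mean, the level was 42.6% ± 5.8 (SD, n = 3) at 24 h, 48.4% ± 1.16 at 48 h and 37.6% ± 2.99 at 120 h.

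The log2 change of epe1 outside prl67 against 0 h was -1.23 ± 0.11 (SE) at 24 h, with an adjusted p of 5.88e-07 by edgeR's quasi-likelihood test with Benjamini-Hochberg adjustment over all genes tested, the test behind every adjusted p below. It was -1.05 at 48 h (adjusted p = 1.90e-06), -1.39 at 72 h (adjusted p = 2.92e-07), -1.40 at 96 h and -1.41 ± 0.11 at 120 h (adjusted p = 3.21e-07 for each of the last). These 5 comparisons share the 0 h libraries. Between consecutive times, epe1 outside prl67 differed in 1 step: the log2 change from 48 h to 72 h was -0.34 ± 0.11 (adjusted p = 0.0403), and the 48 h and 72 h libraries did not overlap. Without 48 h replicate 2 or 3, or without 72 h replicate 1 or 3, that step did not pass, with adjusted p-values of 0.0635 to 0.174 and log2 changes of -0.35 to -0.27, nor did it pass with the compared groups only (-0.32, adjusted p = 0.0962). Of the other steps, 48 h against 24 h gave 0.18 and the later ones -0.01 each, and none passed. Of the 6 JmjC genes, the step from 48 h to 72 h was called for epe1 alone, where 16.9% of all genes tested were called. No member was called at 48 h against 24 h (6.6% of genes), at 96 h against 72 h (1.22%) or at 120 h against 96 h (7.92%).

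**Figure D1:**
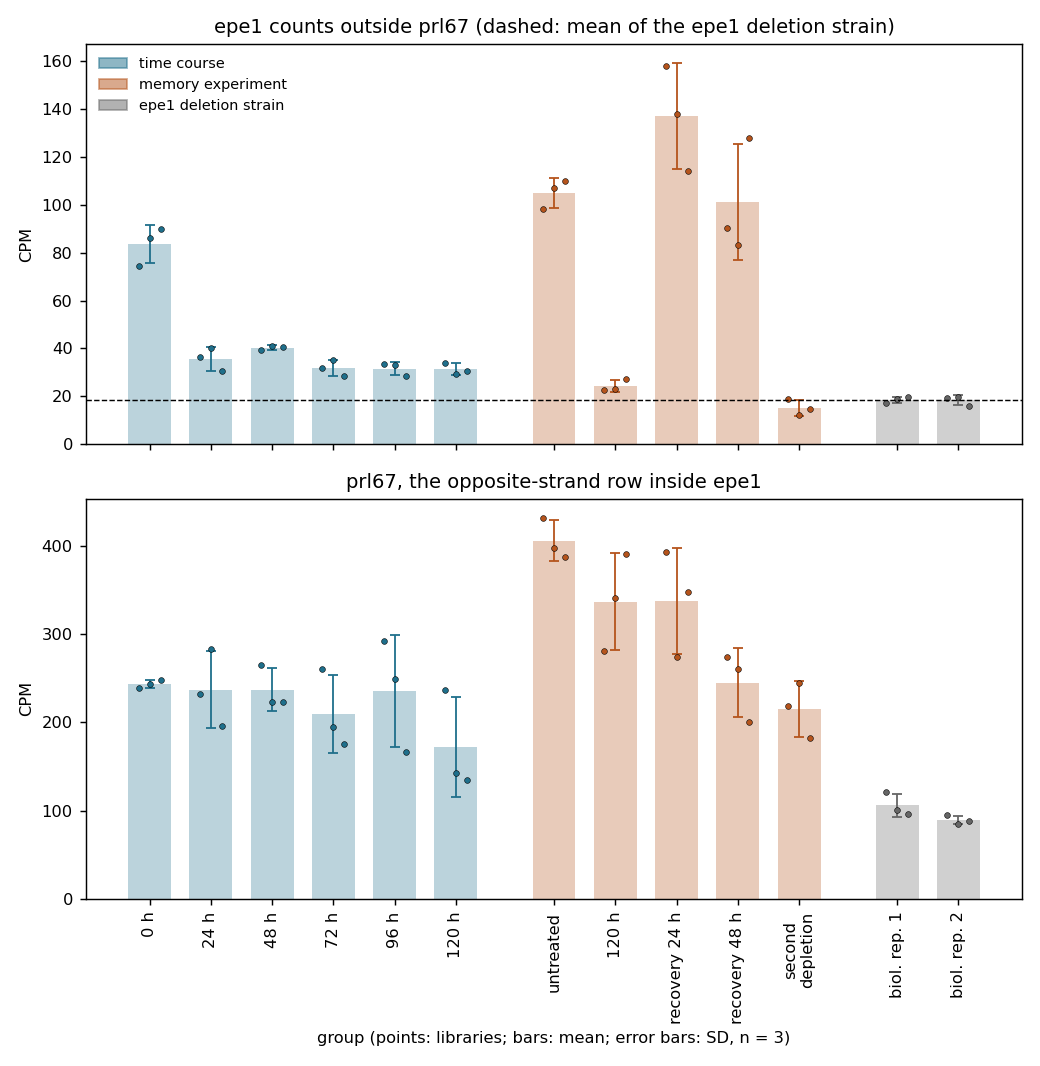
CPM of epe1 outside prl67 (top) and of prl67 itself (bottom) in each of 39 libraries, with points for libraries, bars for the group mean and error bars for the SD (n = 3). Epe1 transcript fell to 30.4 to 40 CPM at 24 h of the time course, returned to 114 to 158 CPM after 24 h of recovery and fell to 12.4 to 18.8 CPM in the second depletion, beside a dashed line at the deletion strain mean of 18.5 CPM.

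The deletion strain gives the level that the epe1 row reads when the gene is deleted. Biological replicate 1 stood at 17.2, 18.9 and 19.8 CPM and biological replicate 2 at 19.5, 19.7 and 16 CPM outside prl67, a mean of 18.5 ± 1.58 CPM (SD, n = 6 libraries from 2 biological replicates). These values lay between 335 and 499 counts per library, so the row was not empty in this strain. What part of the locus the deletion removed is not given in the labels. Against 0 h the log2 change was -2.20 ± 0.10 in biological replicate 1 (adjusted p = 1.53e-08) and -2.21 ± 0.10 in biological replicate 2 (adjusted p = 1.52e-08), and it was called for 1 of the 6 JmjC genes, epe1 itself, in each comparison, where 32.8% and 31.3% of all genes were called. Strain and count table differ together in these comparisons and cannot be told apart. Between the biological replicates the log2 change was -0.01 with a 95% interval from -0.21 to 0.19, and none of the 6 genes was called, beside 0.775% of all genes.

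The 120 h libraries of the time course thus kept more reads over epe1 outside prl67 than the deletion strain: the mean was 1.7 times the deletion mean, and the log2 change of the deletion mean against 120 h was -0.80 ± 0.09 (adjusted p = 1.08e-05). All 6 deletion libraries lay below the 3 libraries at 120 h.

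The whole row, prl67 included, showed much less of this change. It held 313, 331 and 337 CPM at 0 h and 269, 323 and 226 CPM at 24 h, where the groups overlapped, and its log2 change at 24 h was -0.26 (adjusted p = 0.334). At 120 h the whole row stood at 271, 172 and 166 CPM and its log2 change was -0.69, which passed the test. The prl67 row itself held 239, 244 and 248 CPM at 0 h and 237, 143 and 135 CPM at 120 h. Its log2 changes against 0 h ran from -0.50 to -0.04 and none passed (adjusted p = 0.163 at 120 h). In the deletion strain the prl67 row was lower, at 95.7 to 121 CPM in biological replicate 1 and 85.4 to 94.8 CPM in biological replicate 2, with log2 changes of -1.24 ± 0.18 (adjusted p = 7.11e-04) and -1.48 ± 0.19 (adjusted p = 2.73e-04) against 0 h. The row may also hold epe1 reads, so these falls cannot be assigned to either transcript.

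In the memory experiment, epe1 outside prl67 fell, returned and fell again. Untreated libraries stood at 98.4, 107 and 110 CPM, and libraries after 120 h of TN at 22.8, 23.2 and 27.2 CPM. After 24 h of recovery the values were 158, 138 and 114 CPM, all above the untreated libraries. After 48 h of recovery they were 90.3, 83.1 and 128 CPM, which spanned the untreated range. After the second depletion of 24 h they were 18.8, 12.4 and 14.6 CPM, below every library at 120 h of TN and within or below the range of the deletion strain. The lowest of them, replicate 2, rested on 115 counts.

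The log2 change against untreated was -2.10 ± 0.18 after 120 h (adjusted p = 5.03e-06) and -2.77 ± 0.19 after the second depletion (adjusted p = 4.69e-07). Recovery brought epe1 outside prl67 up from the 120 h level by a log2 change of 2.48 ± 0.18 (adjusted p = 9.15e-07), and epe1 was the only 1 of the 6 genes called in that comparison, beside 4.75% of all genes. With the whole row the rise was 0.39 and did not pass (adjusted p = 0.165), since prl67 stood at 281 to 391 CPM at 120 h and at 274 to 393 CPM after 24 h of recovery. Against untreated the level after 24 h of recovery was 130% ± 21.1, a log2 change of 0.38 with a 95% interval from 0.04 to 0.71 that did not pass after adjustment (adjusted p = 0.357). After 48 h it was 95.6% ± 23.0, a log2 change of -0.07 with an interval from -0.40 to 0.27. From 24 h to 48 h of recovery the log2 change was -0.44 ± 0.17 (adjusted p = 0.198). It passed without recovery 48 h replicate 3, at a log2 change of -0.66 (adjusted p = 0.0364).

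The second depletion took epe1 outside prl67 to 14.5% ± 3.11 of the untreated level, 0.824 times the deletion mean, although the libraries come from different tables. Its log2 change against the preceding 24 h of recovery was -3.15 ± 0.19 (adjusted p = 1.36e-07). Against 120 h of the first depletion it was -0.66 ± 0.19 (adjusted p = 0.027), in a comparison added after the data were seen. That call was lost without 120 h replicate 2 or 3 or second depletion replicate 2 or 3, at log2 changes of -0.70 to -0.55 and adjusted p-values of 0.0608 to 0.0971, and in the fit of the compared groups only (-0.68, adjusted p = 0.126). The prl67 row was also lower after the second depletion, at 182 to 245 CPM against 388 to 432 CPM untreated, with a log2 change of -0.92 ± 0.17 (adjusted p = 1.77e-03). This fall too cannot be assigned to prl67 or to epe1 reads over the shared stretch.

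Across the experiments, the second depletion of 24 h lowered epe1 outside prl67 more than the first 24 h of the time course did. The difference of the log2 changes was -1.87 ± 0.21 (adjusted p = 9.55e-07), tested as an interaction between the change from recovery 24 h to the second depletion and the change from 0 h to 24 h, in 1 fit of all degron libraries. It was -1.88 with a GC correction, and with the whole row it was -0.76 (adjusted p = 0.0331). The log2 change at 120 h in the memory experiment minus that in the time course was -0.67 ± 0.21, with a 95% interval from -1.08 to -0.26, and did not pass over all genes (adjusted p = 0.0699). Over 10 other settings this difference ran from -0.67 to 0.20 and passed in 3. These were DESeq2's test (-0.66, adjusted p = 0.0415) and the compared groups only (-0.67, adjusted p = 4.06e-03). The last left out the memory libraries of unlike GC trend, chosen after seeing the data (-0.62, adjusted p = 0.0445). The untreated libraries differed too, by 0.51 ± 0.14 with the memory experiment higher (adjusted p = 6.42e-03), and the experiment cannot be told apart from its table.

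Compared per kilobase of gene, the 6 transcripts differed by a few-fold in untreated cells. At 0 h epe1 outside prl67 was at 40.6 ± 3.85 CPM per kb (SD, n = 3) and jmj3 at 32 ± 1.8, or 38.9 when the 2443 bases of its 2 annotated exons are used in place of the full span. On the exon length jmj3 falls inside the range of epe1, 36.3 to 43.6 CPM per kb. Next came the full lid2 row at 20 ± 1.63 CPM per kb, followed by jmj2 at 15.6 ± 0.59, jmj1 at 14.8 ± 0.162 and msc1 at 13.7 ± 0.767. Unlike epe1, lid2 was taken here with the counts of lid2-antisense-1, a row inside it on the other strand. That row alone stood at 30.3 ± 2.55 CPM per kb at 0 h. The rest of lid2 thus lay below 20 CPM per kb: its 2678 bases held 803, 767 and 707 counts at 0 h. It ranked below jmj2, which held 810, 857 and 724 counts over 2250 bases. Per base it lay close to msc1, which held 1576, 1684 and 1459 counts over 5031 bases. Reads crossing the edges of lid2-antisense-1 were removed with it, so the rank of lid2 beside msc1 is not settled. The ranges of the last 3 genes were 15.2 to 16.2 CPM per kb for jmj2, 14.7 to 15 for jmj1 and 13.3 to 14.6 for msc1, which did not overlap but lay close together. By 120 h epe1 outside prl67, at 15.3 ± 1.22 CPM per kb, had moved down among them. The highest rows of the 6 were jmj3 at 33.5 ± 2.35 and the full lid2 row at 24.2 ± 2.14, with lid2-antisense-1 at 34.6 ± 2.31 inside it. In the deletion strain the residual reads over epe1 gave 9.05 and 8.96 CPM per kb, the lowest of the 6 rows.

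In the time course all 6 genes were called at 24 h, beside 37.7% of all genes tested, and all 6 at 48 h, beside 48% of all genes. At each time lid2, msc1 and jmj2 rose, where 20.5% and 25.6% of all genes did, and epe1, jmj1 and jmj3 fell, where 17.2% and 22.4% of all genes did. The calls then thinned out: 3 genes at 72 h (epe1, lid2 and msc1; 15.8% of all genes), 2 at 96 h (epe1 and msc1; 12.5%) and epe1 alone at 120 h (14.2%). At 120 h lid2 and msc1 passed in some of the alternative fits, as given below. Apart from epe1, no log2 change against 0 h was larger than 0.50 in either direction.

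**Figure D2:**
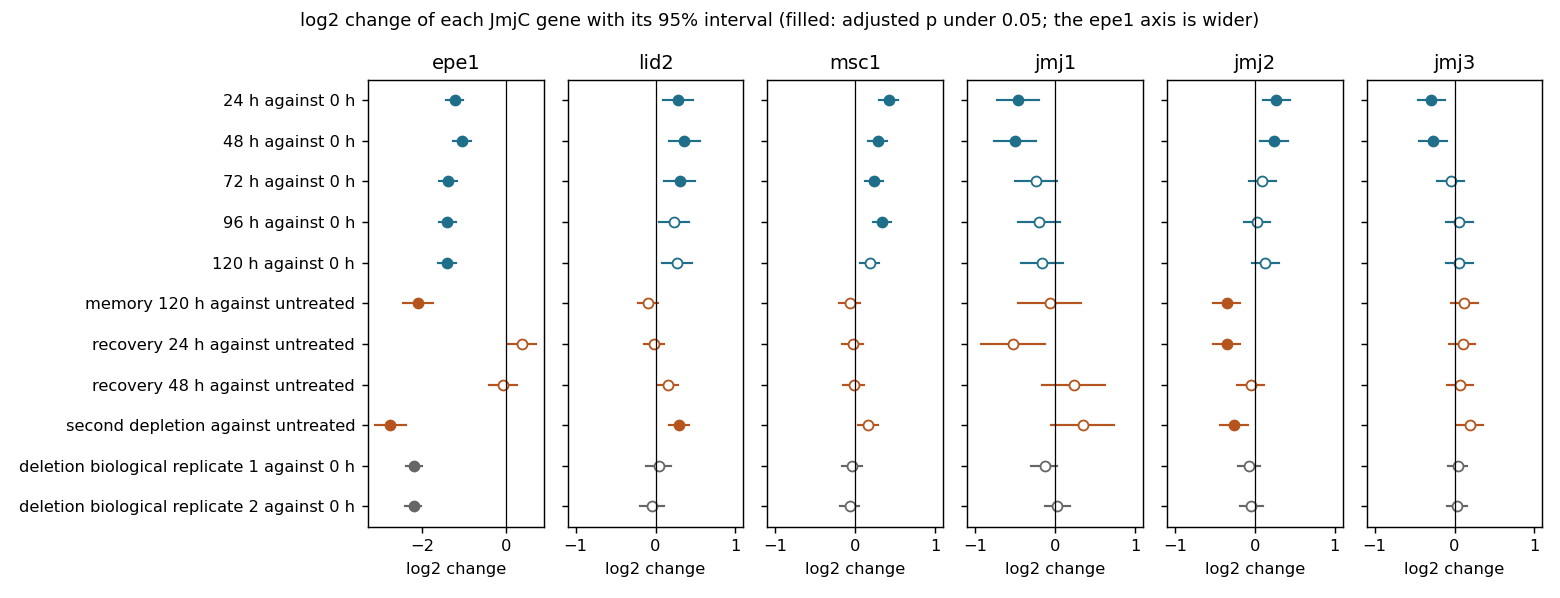
Fitted log2 change of each JmjC gene (columns; epe1 on a wider axis) against the untreated or 0 h libraries in 11 comparisons (rows), with 95% intervals as lines; filled circles mark an adjusted p under 0.05. The filled circles of genes other than epe1 sit within 0.50 of zero, and in the deletion strain only epe1 is filled.

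Among the subunits of the Lid2 complex, lid2 and jmj3 moved in opposite directions early in the time course. The gene lid2 (SPBP19A11.06, chromosome II, 2863784 to 2868411, plus strand) encodes the catalytic demethylase subunit Lid2. It stood at 95.2, 84 and 98.4 CPM at 0 h, at 116, 108 and 113 CPM at 24 h and at 104, 116 and 135 CPM at 48 h. Both treated groups lay above all 0 h libraries. The log2 change was 0.28 ± 0.10 at 24 h (adjusted p = 0.0318), 0.36 ± 0.10 at 48 h (adjusted p = 7.02e-03) and 0.30 ± 0.10 at 72 h (adjusted p = 0.0495), and at 96 h and 120 h it was 0.23 (adjusted p = 0.145) and 0.27 (adjusted p = 0.0739). The 24 h call of lid2 was lost without 0 h replicate 1 or 2 or 24 h replicate 1 or 3, with adjusted p-values of 0.055 to 0.134. The 72 h call of lid2 was lost without any of the libraries of these groups other than 72 h replicate 1 (adjusted p = 0.0618 to 0.188), and the 120 h value passed without 120 h replicate 1 (adjusted p = 0.0458). With the compared groups only, the 72 h change of lid2 was 0.30 and did not pass (adjusted p = 0.0678). The 120 h change of lid2 passed in 4 of 9 other settings. Among them were a replicate block (0.27, adjusted p = 0.0301) and DESeq2's test (0.27, adjusted p = 0.0431).

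The row lid2-antisense-1 lies inside lid2 on the other strand, covers 42.1% of it and held a median of 61.5% of its counts, so sense and antisense reads cannot be told apart over that stretch. With those counts taken off, the log2 change of lid2 was 0.27 at 24 h (adjusted p = 0.0553) and 0.41 at 120 h (adjusted p = 0.0149). Another non-coding row, SPNCRNA.1555, shared 27 bases with the start of lid2. The lid2-antisense-1 row moved with lid2, by log2 changes of 0.29 ± 0.10 at 24 h and 0.33 ± 0.10 at 48 h.

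The gene jmj3 (SPBC83.07, chromosome II, 1520728 to 1523695, plus strand), annotated as a histone demethylase subunit of the Lid2 complex, stood at 89.1, 99.4 and 96.7 CPM at 0 h. It was at 70.9, 79.9 and 82.1 CPM at 24 h and at 87.3, 73.8 and 75.1 CPM at 48 h. All of these libraries were below the 0 h group, at 48 h by a gap of 1.77 CPM. The log2 change was -0.29 ± 0.09 at 24 h (adjusted p = 0.0162) and -0.27 ± 0.09 at 48 h (adjusted p = 0.0183). The jmj3 level was back at 85.2 to 98.2 CPM by 72 h and 93.2 to 107 CPM at 120 h, with log2 changes from -0.05 to 0.06. The 24 h call of jmj3 was lost without 0 h replicate 2 or 24 h replicate 1 (adjusted p = 0.0619 and 0.0797), and the 48 h call without 0 h replicate 2 or 3 or 48 h replicate 2 or 3 (adjusted p = 0.0516 to 0.0805). With plain library totals neither call of jmj3 passed. The log2 changes were then -0.21 at 24 h (adjusted p = 0.0528) and -0.18 at 48 h (adjusted p = 0.0858).

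The gene msc1 (SPAC343.11c, chromosome I, 1658316 to 1663346, minus strand) is annotated as a histone demethylase subunit of the Swr1 complex, which places the histone variant H2A.Z. The msc1 libraries stood at 66.8, 67.1 and 73.6 CPM at 0 h and at 91, 93.9 and 92.1 CPM at 24 h, a gap of 17.4 CPM. The values were 82.4, 80.8 and 88.6 CPM at 48 h, 79.7, 81.2 and 83.5 CPM at 72 h, 79, 92.9 and 89.5 CPM at 96 h and 77.2, 79.3 and 78.6 CPM at 120 h. Every treated library was above every 0 h library. The log2 change was largest at 24 h, 0.42 ± 0.06 (adjusted p = 1.06e-04), and was 0.28 at 48 h (adjusted p = 1.41e-03), 0.24 at 72 h (adjusted p = 0.0147), 0.33 at 96 h (adjusted p = 1.63e-03) and 0.18 at 120 h (adjusted p = 0.0573). For msc1 the 72 h call was lost without 0 h replicate 1 or 2 or 72 h replicate 3 (adjusted p = 0.0529 to 0.0671), and the 120 h value passed without 0 h replicate 3 (adjusted p = 0.0349). The 120 h change of msc1 also passed in 4 of 8 other settings. Among them were a replicate block (0.18, adjusted p = 0.0258) and DESeq2's test (0.18, adjusted p = 0.0245). An 80-base overlap with met11 on the other strand touches 1.59% of msc1.

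The genes jmj1 and jmj2, both on chromosome I and both annotated as histone demethylases, had the lowest CPM of the 6 at 0 h and moved in opposite directions at 24 h and 48 h. For jmj1 (SPAC25H1.02, 2525778 to 2527510, plus strand) the libraries stood at 25.5, 25.5 and 26 CPM at 0 h, 17.1, 20.3 and 18.7 CPM at 24 h and 14.7, 19.5 and 20.3 CPM at 48 h. Every library at 24 h and 48 h was at least 5.13 CPM below the 0 h group. The log2 change of jmj1 was -0.46 ± 0.13 at 24 h (adjusted p = 0.0145) and -0.50 ± 0.13 at 48 h (adjusted p = 6.45e-03). By 120 h it had come back to 23, 23.5 and 22.6 CPM with a log2 change of -0.16 (adjusted p = 0.503). The 24 h call of jmj1 was lost without 24 h replicate 1 (adjusted p = 0.0634).

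For jmj2 (SPAC1002.05c, 1804548 to 1806797, minus strand) the libraries stood at 34.3, 34.1 and 36.5 CPM at 0 h and 42.2, 42.6 and 41.7 CPM at 24 h, with no overlap. At 48 h they were at 36.8, 41.7 and 45.3 CPM, just above the 0 h group. The log2 change of jmj2 was 0.27 ± 0.08 at 24 h (adjusted p = 0.0219) and 0.24 ± 0.08 at 48 h (adjusted p = 0.0297), and from 72 h on it lay between 0.03 and 0.13 and did not pass. Without 0 h replicate 1 or 2, or 24 h replicate 1 or 2, the 24 h call of jmj2 was lost (adjusted p = 0.0541 to 0.0693), and without 0 h replicate 1 or 2 or 48 h replicate 2 or 3 the 48 h call was lost (adjusted p = 0.0765 to 0.133). With the compared groups only, the 48 h change of jmj2 was 0.24 and did not pass (adjusted p = 0.0513).

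**Figure D3:**
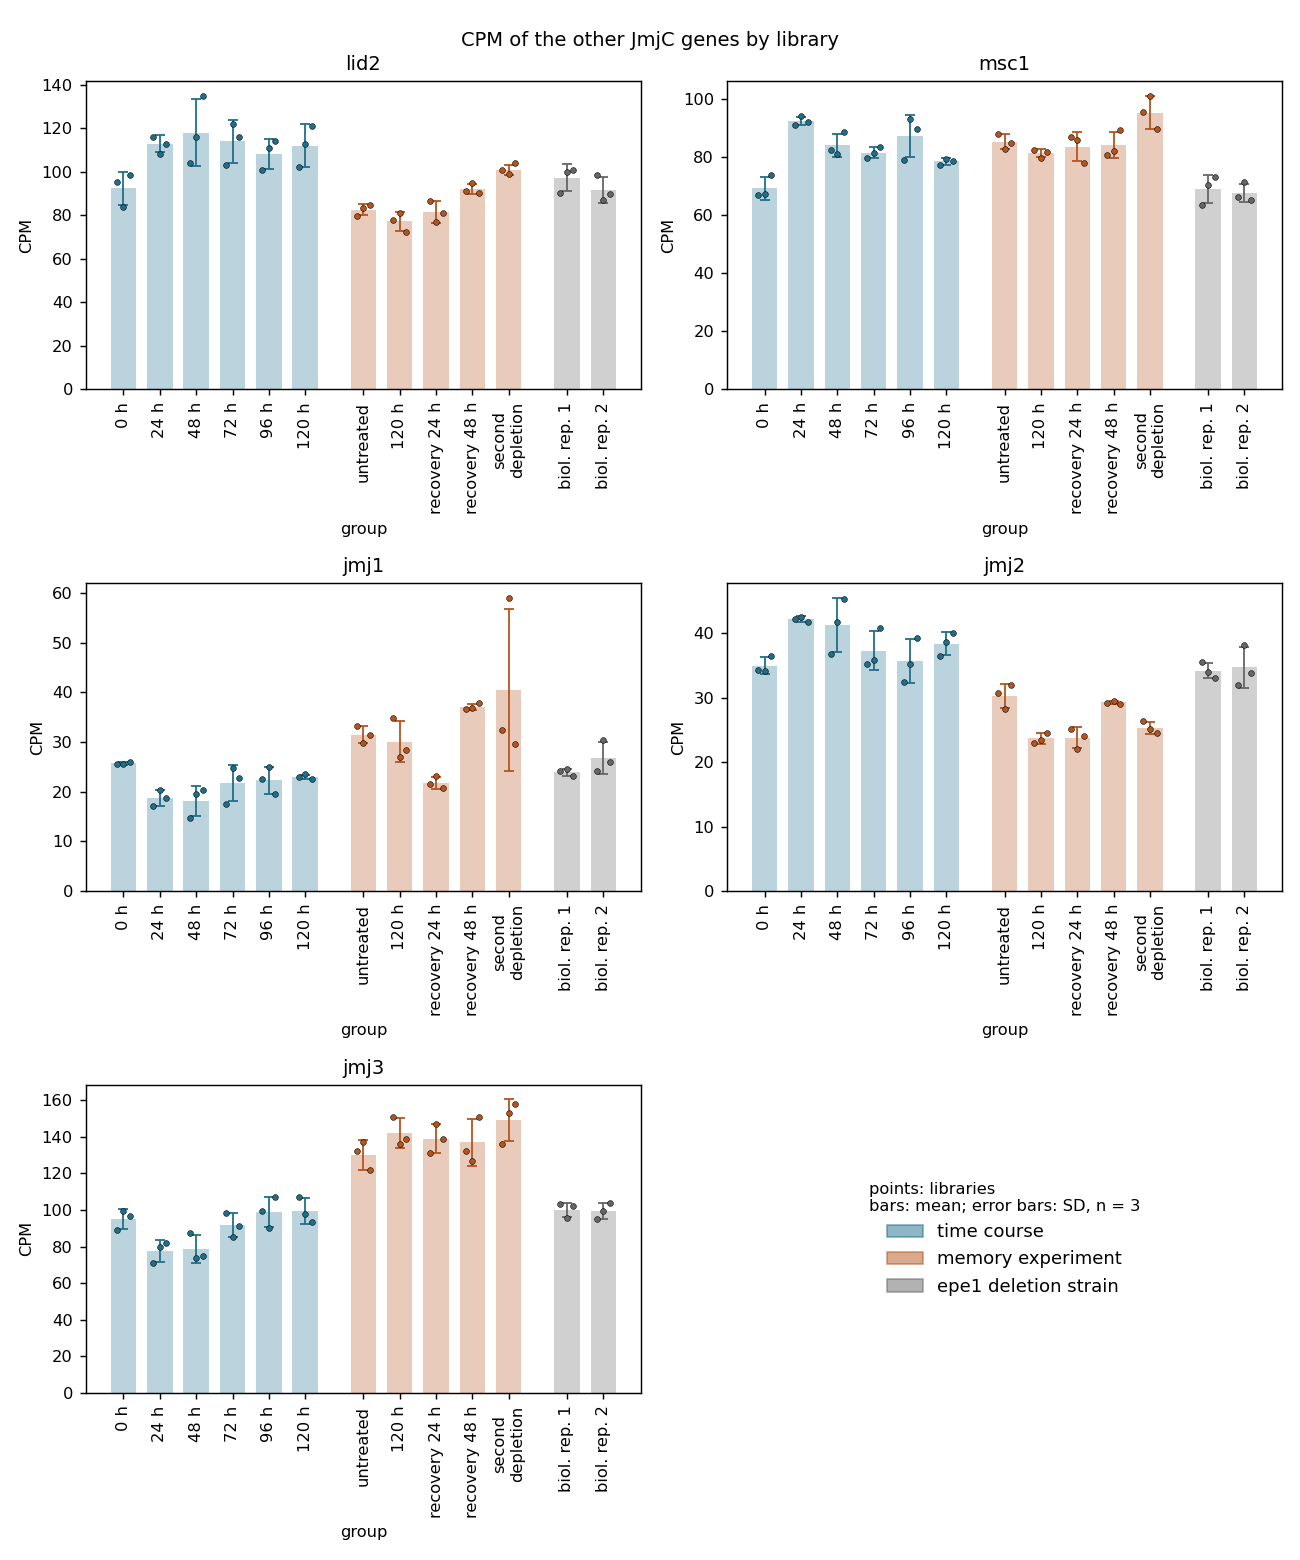
CPM of lid2, msc1, jmj1, jmj2 and jmj3 in each of 39 libraries, with points for libraries, bars for the group mean and error bars for the SD (n = 3); every axis starts at 0. In the time course msc1 stays above its 0 h libraries at every later time, while jmj2 is higher and jmj1 and jmj3 are lower at 24 h and 48 h, and jmj1 of second depletion replicate 2 stands alone at 59.1 CPM.

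In the deletion strain none of the 5 genes other than epe1 differed from 0 h past the threshold. Their log2 changes lay between -0.13 and 0.04 in biological replicate 1 and between -0.07 and 0.03 in biological replicate 2. The widest of the 95% intervals, that of jmj1 in biological replicate 1, ran from -0.30 to 0.03. Set against 120 h of the time course, 4 of the 6 genes were lower in the deletion strain, beside 42.4% of all genes: epe1, lid2 by -0.28 ± 0.07 (adjusted p = 4.83e-03), msc1 by -0.24 ± 0.05 (adjusted p = 2.47e-03) and jmj2 by -0.19 ± 0.06 (adjusted p = 0.0242). The call of jmj2 was lost without deletion biological replicate 1 replicate 3 or 120 h replicate 2 or 3 (adjusted p = 0.0531 to 0.118). This test took the 6 deletion libraries as separate, although they came from 2 biological replicates. After counts were pooled within biological replicates, lid2 gave -0.28 (adjusted p = 0.0536) and jmj2 -0.18 (adjusted p = 0.081). Neither of these passed, while epe1 and msc1 still did. Of all genes, 1482 were then called, against 2791 before pooling.

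In the memory experiment no library was taken between 0 and 120 h of the first depletion, and fewer of the genes were called. After 120 h, 2 of the 6 were, epe1 and jmj2, beside 6.15% of all genes. After 24 h of recovery 1 of the 6 was, jmj2, beside 3.04% of all genes, and after 48 h of recovery none was, beside 2.41%. After the second depletion epe1, lid2 and jmj2 were called, 3 of 6 beside 44.7% of all genes.

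The jmj2 libraries stood at 30.8, 28.3 and 31.9 CPM untreated and at 23, 23.4 and 24.6 CPM after 120 h, a log2 change of -0.35 ± 0.09 (adjusted p = 0.0239). They were at 25.2, 22 and 24.1 CPM after 24 h of recovery (log2 change -0.35 ± 0.09, adjusted p = 0.0447) and at 29.2, 29.5 and 29 CPM after 48 h, inside the untreated range. After the second depletion jmj2 was at 26.4, 25.2 and 24.5 CPM, a log2 change of -0.26 ± 0.09 (adjusted p = 0.0304). The 3 lower groups did not overlap the untreated libraries. The calls of jmj2 rested on few libraries: that at 120 h was kept in 1 of 6 fits with a library left out, without untreated replicate 2, and otherwise gave adjusted p-values of 0.0511 to 0.129. That after 24 h of recovery was kept in none of 6 (adjusted p = 0.0629 to 0.236), and that after the second depletion was lost without untreated replicate 1 or 3 or second depletion replicate 3 (adjusted p = 0.0851 to 0.102). With a GC correction the second depletion value of jmj2 was -0.15 (adjusted p = 0.16), with plain library totals it was -0.53 (adjusted p = 0.0603), and with the compared groups only it was -0.25 (adjusted p = 0.14). With plain library totals jmj2 gave -0.31 at 120 h (adjusted p = 0.704) and -0.41 after 24 h of recovery (adjusted p = 0.553). The fall of jmj2 at 120 h differed from the time course, where the gene stood at 36.5 to 40 CPM at 120 h. The difference of the log2 changes was -0.47 ± 0.11 (adjusted p = 0.0163), the only 1 of the 6 genes for which the 120 h effects differed past the threshold, beside 3.92% of all genes. It did not pass without 120 h replicate 3 of the time course (adjusted p = 0.0558) or untreated replicate 3 of the memory experiment (adjusted p = 0.0509), nor with plain library totals (adjusted p = 0.372).

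The jmj1 libraries stood at 33.2, 29.8 and 31.5 CPM untreated, at 34.8, 27 and 28.5 CPM after 120 h and at 21.5, 23.2 and 20.8 CPM after 24 h of recovery. At 48 h of recovery they were at 36.6, 36.8 and 37.8 CPM, above every untreated library. The log2 change of jmj1 after 24 h of recovery was -0.53 ± 0.20 against untreated (adjusted p = 0.25). With the compared groups only it was -0.53 and passed (adjusted p = 3.84e-03), and without the memory libraries of unlike GC trend, an alternative chosen after seeing the data, it was -0.57 and passed (adjusted p = 9.94e-04). From 24 h to 48 h of recovery the log2 change of jmj1 was 0.76 ± 0.20 (adjusted p = 0.0472), the only call among the 6 genes in that step, beside 5.21% of all genes. The latter did not pass with any 1 of its 6 libraries left out (adjusted p = 0.11 to 0.181), and with a replicate block its adjusted p was 0.0736.

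After the second depletion jmj1 stood at 32.5, 59.1 and 29.6 CPM. Replicate 2, with 550 counts of jmj1, was the library with the TMM factor of 0.629 and the GC trend of 0.644 given above. Against the preceding 24 h of recovery the log2 change of jmj1 was 0.88 ± 0.20 (adjusted p = 9.01e-03), and without second depletion replicate 2 it was 0.51 (adjusted p = 6.02e-03). With the compared groups only it was 0.87 and did not pass (adjusted p = 0.114). Against untreated, jmj1 after the second depletion gave 0.35 ± 0.20 (adjusted p = 0.163), and -0.02 without second depletion replicate 2. Of the 6 genes, epe1, lid2 and jmj1 were called in the second depletion against 24 h of recovery, beside 27.8% of all genes. The change of jmj1 from recovery 24 h, its lowest group in that experiment, to the second depletion differed from that over the first 24 h of the time course, by a difference of the log2 changes of 1.38 ± 0.25 (adjusted p = 4.72e-04), or 0.97 without second depletion replicate 2 (adjusted p = 6.14e-04). With epe1 and jmj3, 3 of the 6 genes differed in this way between the depletions, beside 26.1% of all genes. For jmj3 the difference was 0.43 ± 0.13 (adjusted p = 0.0173). It was 0.22 with a GC correction (adjusted p = 0.148), and it did not pass without 0 h replicate 2, 24 h replicate 1, recovery 24 h replicate 1 or second depletion replicate 2 (adjusted p = 0.0533 to 0.0691).

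In the memory experiment lid2 stood at 79.9, 83.2 and 84.6 CPM untreated, at 72.4 to 81.3 CPM after 120 h and at 101, 99.2 and 104 CPM after the second depletion. The last group lay above all other libraries of that experiment. The log2 change of lid2 after the second depletion was 0.29 ± 0.06 against untreated (adjusted p = 4.51e-03), 0.31 ± 0.06 against 24 h of recovery (adjusted p = 3.97e-03) and 0.39 ± 0.06 against 120 h (adjusted p = 3.66e-03). Here the GC trend moved with the group: with a GC correction the first of these was 0.19 (adjusted p = 0.0524), and with plain library totals it was 0.02. With the counts of lid2-antisense-1 taken off, lid2 gave 0.21 against untreated (adjusted p = 0.0946), 0.22 against 24 h of recovery (adjusted p = 0.0978) and 0.29 against 120 h (adjusted p = 0.0455). With the compared groups only, the change of lid2 against recovery had an adjusted p of 0.0907 and that against 120 h of 0.116. In the comparison with 120 h, msc1 was also called, at 0.23 ± 0.07 (adjusted p = 0.0298), but with a GC correction its log2 change was 0.07 and with plain library totals it was -0.10. That call of msc1 was lost without 120 h replicate 2 or 3 or second depletion replicate 2 (adjusted p = 0.081 to 0.101). With epe1 and lid2 it made 3 of 6 genes, beside 29.4% of all genes.

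Untreated libraries of the memory experiment and of the time course differed for 4 of the 6 genes, beside 41% of all genes. All 4 were higher in the memory experiment, jmj3 by a log2 difference of 0.63 ± 0.09 (adjusted p = 6.51e-06), epe1 by 0.51, msc1 by 0.48 ± 0.06 (adjusted p = 1.23e-06) and jmj1 by 0.47 ± 0.17 (adjusted p = 0.0313). The jmj1 difference did not pass without any 1 of the 0 h libraries or untreated replicate 1 or 3 (adjusted p = 0.0611 to 0.0904). The differences of lid2 and jmj2 were 0.01 and -0.03, with 95% intervals from -0.15 to 0.17 and from -0.19 to 0.12. With plain library totals, epe1 differed by 0.32 (adjusted p = 0.175) and jmj1 by 0.28 (adjusted p = 0.117).

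A further JmjC gene, jmj4 (SPCC622.19), lies wholly inside str2 on the other strand, so its counts cannot be separated from those of str2. The str2 row held more counts than jmj4 in each of the 24 libraries of the tables that list it. The jmj4 row fell to 46, 45.5 and 52.5 CPM at 24 h from 59.5, 60 and 56.8 CPM at 0 h, a log2 change of -0.29 ± 0.06 (adjusted p = 1.48e-03), beside a fall of str2 by 0.35 on the log2 scale.

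The partners of these proteins were followed as lists, described by counts and by the median log2 change beside the median of all genes. Of 5 genes for Epe1 partners and its turnover, 3 were called at 24 h, beside 37.7% of all genes, and none at 120 h, beside 14.2%, with medians of -0.05 and -0.06 against 0.02 and 0.01 for all genes. The gene cdt2, which encodes the substrate receptor that marks Epe1 for degradation, stood at 60.3, 61 and 48.4 CPM at 0 h and 112, 117 and 87.1 CPM at 24 h, a log2 change of 0.90 ± 0.17 (adjusted p = 1.12e-03). At 48 h it was 0.55 ± 0.17 (adjusted p = 0.0146) and at 120 h it was -0.14. After the second depletion cdt2 stood at 61.4, 71.4 and 62.6 CPM against 34.3, 29.9 and 36.2 CPM untreated, a log2 change of 0.96 ± 0.13 (adjusted p = 1.72e-04), whereas after 120 h of the memory experiment it was 0.37 (adjusted p = 0.122). The cdt2 libraries of these groups did not overlap their untreated libraries at 24 h or after the second depletion. The bromodomain gene bdf2 rose by 0.36 ± 0.08 at 24 h (adjusted p = 2.40e-03), and it fell by 0.41 on the log2 scale after 120 h in the memory experiment (adjusted p = 8.30e-03) and by 0.39 in deletion biological replicate 1 (adjusted p = 6.39e-04). The HP1 gene swi6 fell by 0.19 on the log2 scale at 24 h (adjusted p = 0.0181), by 0.36 at 48 h (adjusted p = 1.20e-04) and, on the same scale, by 0.78 after the second depletion (adjusted p = 6.07e-03). The swi6 libraries stood at 102, 57.1 and 81.1 CPM there, against 134 to 140 CPM untreated. The lowest was second depletion replicate 2, the library with the TMM factor of 0.629, and no GC-corrected value of swi6 is given. The other list members, ddb1 and pcu4, are the adaptor and the cullin of the same ligase.

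Of the 8 genes of the Set1 complex, the methyltransferase that acts opposite to Lid2, none was called at 24 h or 120 h, beside 37.7% and 14.2% of all genes. At 48 h 4 of them fell, where 48% of all genes were called and 22.4% fell. Among the 4 were swd1 with a log2 change of -0.36 ± 0.07 (adjusted p = 1.09e-03) and ash2 with -0.33 ± 0.10 (adjusted p = 0.012). In the Set1 list other rows cover 85% of sdc1, 73.9% of swd2 and 33.2% of shg1, so their counts may hold reads of other genes. Of the 3 other Lid2 complex genes, snt2 and ash2 were called at 48 h and none at 24 h or 120 h, beside the same shares of all genes. None of the 4 genes of the LSD complex, which holds the other demethylase family, was called at 24 h, 48 h or 120 h, beside 37.7%, 48% and 14.2% of all genes. After the second depletion 3 of the 4 were, beside 44.7% of all genes: phf1 by 0.70 ± 0.20 (adjusted p = 0.0171) and phf2 by 0.24 ± 0.08 (adjusted p = 0.0229) higher, and lsd1 by a log2 change of -0.17 (adjusted p = 0.0264). The phf1 libraries stood at 60, 122 and 71.9 CPM there against 49.7 to 53.2 CPM untreated, and the highest was second depletion replicate 2, the library with the TMM factor of 0.629. Of the 12 Swr1 complex and H2A.Z genes, 4 were called at 24 h, beside 37.7% of all genes. At 48 h 8 were called, beside 48% of all genes, and 7 of these were lower, beside 22.4%. At 120 h 1 was called, yaf9, beside 14.2%. The median of the Swr1 list at 48 h was -0.22 against 0.00 for all genes. Within that list at 48 h rvb2 fell by 0.38 (adjusted p = 7.10e-05) and swc3 by 0.35 (adjusted p = 4.48e-03), although other rows cover 37.6% of swc3. The annotated Swr1 subunit gene msc1 rose at the same time. In deletion biological replicate 1, 5 of these 12 were called, all lower, beside 32.8% of all genes called in either direction, among them swc3 by 0.43 on the log2 scale. In biological replicate 2, 3 of the 12 were called, all lower, beside 31.3%. In the Swr1 list other rows also cover 100% of swc5 and 66.6% of swc4, so their counts may hold reads of other genes.

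Of the other methyltransferase genes clr4, set2 and set9, clr4 (the H3 lysine methyltransferase of heterochromatin) was called at 120 h, with a log2 change of -1.86 ± 0.14 (adjusted p = 3.22e-07), and meu6 covers 54.5% of its row. The whole clr4 row held 48 to 54.5 CPM at 0 h and 10.7 to 17.2 CPM at 120 h, and in the memory experiment it stood at 30.8 to 35 CPM untreated, 6.1 to 7.61 CPM after 120 h and 92.4 to 136 CPM after 24 h of recovery. In those libraries epe1 outside prl67 was at 98.4 to 110, 22.8 to 27.2 and 114 to 158 CPM.

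Thiamine is part of the treatment, and the 4 measured genes of the thiamine-repressed list were all called lower in each of the 7 comparisons of TN-treated with untreated libraries: the 5 later times of the time course, memory 120 h and the second depletion. Of all genes, 6.15% to 48% were called in either direction in these comparisons. At 24 h the median log2 change of thi4, thi9, bsu1 and pho4 was -3.59 against 0.02 for all genes. The largest fall was that of bsu1, a vitamin B6 importer, at -3.90 ± 0.14 (adjusted p = 1.21e-11), from a mean of 563 ± 103 CPM to 37.7 ± 2.82 CPM (SD, n = 3). In deletion biological replicate 1, which had no TN, the median of the list was 0.07 and only bsu1 was called, at -0.41 ± 0.11 (adjusted p = 0.0125), beside 32.8% of all genes. After 24 h of recovery 3 of the 4 were called above untreated, beside 3.04% of all genes called in either direction. Among them were bsu1, higher by 1.63 ± 0.18 (adjusted p = 1.51e-04), and pho4, an acid phosphatase, by 0.83 ± 0.17 (adjusted p = 0.0178).

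The genes whose pattern was most like that of epe1 outside prl67 were ranked by Pearson's r of mean log2 CPM over the 11 degron groups, with each experiment centred on its own mean and 6063 genes compared. The 5 closest were mug111 (r = 0.98), SPNCRNA.1532 (r = 0.98), thi5 (r = 0.97), bsu1 (r = 0.96) and SPNCRNA.402 (r = 0.96). The values are a description: groups of an experiment share a table, and no p is given. SPNCRNA.1532 and SPNCRNA.402 overlap each other on opposite strands, so their counts share reads. By Spearman's rho the first 2 were the same genes, SPNCRNA.1532 (0.98) and mug111 (0.97), and bsu1 had a rho of 0.85. Within each experiment alone r was 0.96 or higher for all 5.

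The mean of mug111 was 98.5 ± 4.04 CPM (SD, n = 3) at 0 h, 17.5 ± 0.363 CPM at 24 h and 17 ± 1.28 CPM at 120 h, and SPNCRNA.1532 stood at 91.9 ± 7.21, 35.9 ± 2.37 and 31.7 ± 3.23 CPM at the same times. In the deletion strain, which was not used for the ranking, the genes parted from epe1: mug111 was at 99.3 ± 6.35 and 107 ± 1.79 CPM, SPNCRNA.1532 at 93.9 ± 14 and 110 ± 3.23 CPM and thi5, a transcription factor gene, at means of 126 and 128 CPM, close to or above their 0 h means, while epe1 outside prl67 was at 18.6 ± 1.31 and 18.4 ± 2.13 CPM.

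**Figure D4:**
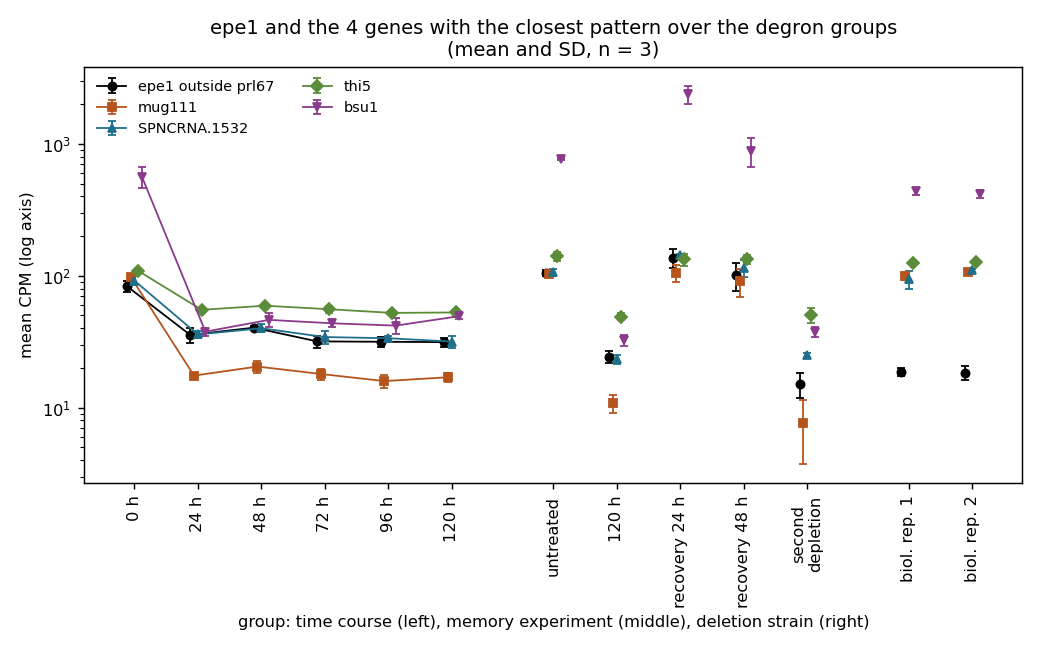
Mean CPM on a log axis (error bars: SD, n = 3) of epe1 outside prl67, mug111, SPNCRNA.1532, thi5 and bsu1 in the 13 groups, with lines joining the times of the time course. All 5 fall by 24 h and return in recovery; in the deletion strain at the right epe1 alone is low, near 18.5 CPM.

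For the other members the closest patterns, by the same measure, were SPAC23A1.14c (r = 0.97) and zip1, a transcription factor gene (r = 0.94), for lid2, and SPAC19G12.05, annotated as a citrate transporter gene (r = 0.98), and SPNCRNA.1491 (r = 0.97) for jmj3. For msc1 they were dnf1, a P-type ATPase gene (r = 0.91), and lsd2, a gene for a putative histone demethylase of the other family (r = 0.90). For jmj1 they were csn5 and ctf1 (r = 0.90 each), and for jmj2 the chaperone gene hsp104 (r = 0.89) and swi5 (r = 0.88). By Spearman's rho the closest gene was the same for jmj3, whereas zip1 came first for lid2 (0.98), phx1 for msc1 (0.90), SPCC1840.07c for jmj1 (0.94) and cbf12 for jmj2 (0.94).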

How the data were processed

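RNA was selected for polyA tails, per the labels' protocols. The authors deposited counts of reads per gene, unnormalised, in 3 tables, 1 for each experiment. Reads were trimmed with Trimmomatic and aligned with STAR to ASM294v2, per the submitters' processing notes. The counting tool and its strand setting are not given in the sources used here. The deposited tables also hold 6 sample columns that fit no label and stayed out of every step. The last digit of a column name was read as the replicate number. Gene IDs were matched to RefSeq ASM294v3 for 6626 of 6745 genes (98.2%), and 99.5% of these share a start or end with the files.

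The prl67 counts were subtracted from the epe1 row. Within each experiment (edgeR 4.0.16, limma 3.58.1, R 4.3.3), genes passing filterByExpr were scaled by TMM and fitted with robust glmQLFit and tested with glmQLFTest, with p-values adjusted by the Benjamini-Hochberg method over all genes of a comparison at a threshold of 0.05. CPM levels use TMM within a table. The deletion libraries were fitted with the time course libraries for their comparisons, and experiments were compared in a joint fit. For the deletion mean against 120 h, an alternative fit pooled counts within biological replicates. DESeq2 1.42.0, other scalings, no filter on low counts, a GC offset, a replicate block, fits of the compared groups only and fits with each library left out were alternatives. Similar genes needed a mean of at least 5 CPM; 5 are named for epe1 and 2 for each other member. Named list genes are the 2 called genes with the largest changes in each list and comparison. The fit without the memory libraries farthest in GC trend and the contrast of the second depletion with memory 120 h were chosen after seeing the data. lsd1, the 24 h value of swi6 and the values of genes that were not called were picked after seeing the data. The members and lists were chosen with earlier results of these data known.

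In 3 comparisons every same-numbered pair of deviations from the group means correlated at over 0.1 (lowest r 0.117 at 72 h against 0 h, 0.373 at 72 h against 48 h and 0.196 at 96 h against 72 h). Differently numbered libraries were not compared, so this cut cannot show that replicate numbers pair the cultures. No pair of libraries of a group differed by less than sampling noise (lowest chi-square over degrees of freedom 3.61 in 39 pairs). On simulated counts for 120 h against 0 h, the fit recovered 78 of 100 genes changed by 0.75 on the log2 scale and 93 of 100 changed by 1.5, with 8 false calls among 6652 genes. For memory 120 h against untreated it recovered 65 and 88 of 100 at these sizes. For the difference of the 120 h effects it recovered 58 and 94 of 100. Changes smaller than 0.75 were not simulated. Counting error covers reads only, not molecules. Some thiamine genes of the list are not analysed here.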

Additional observations from a re-analysis of the deposited data

Results flagged for a closer look

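Changes over the same hours of TN differed between the depletions or the experiments for 4 values. Each was tested by an interaction term over all degron libraries with edgeR's quasi-likelihood test. For 24 h of depletion, the change from recovery 24 h to the second depletion was set against that from 0 h to 24 h of the time course. The difference of the log2 changes was -1.87 for epe1 outside prl67, 1.38 for jmj1 and 0.43 for jmj3. Starting point, order of depletion and experiment cannot be told apart here. At recovery 24 h the means were 137, 21.8 and 139 CPM for epe1 outside prl67, jmj1 and jmj3, against 105, 31.5 and 130 CPM untreated in the memory experiment. For 120 h of depletion, the log2 change in the memory experiment minus that in the time course was -0.47 for jmj2. The second depletion libraries also differed in GC trend and in TMM factor: with a GC correction the difference was -1.88 for epe1, 1.19 for jmj1 and 0.22 for jmj3, and the jmj3 value no longer passed.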

How the results depend on the processing

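Using the whole epe1 row gave log2 changes of -0.26 for epe1 at 24 h, -0.11 for recovery 24 h against untreated and 0.39 for recovery 24 h against memory 120 h; the prl67 counts make up the difference by construction. With plain library totals msc1 reversed to -0.10 for the second depletion against memory 120 h; the cause was not tested. Calls among the JmjC genes numbered 18 in the time course and 11 to 19 with a library left out. In the memory experiment they numbered 6, with 2 under plain library totals, 3 under a replicate block with GC offset and 3 to 7 with a library left out. Experiment differences numbered 8, with 5 under plain library totals and 6 to 9 with a library left out. With a replicate block epe1 changed by -1.24 at 24 h. The block changed no member call in the 3 comparisons where every same-numbered pair correlated at over 0.1. In the other comparisons that cut was not met. The block gave 20 time course calls, with lid2 and msc1 at 120 h added, and 5 memory calls.

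With a library left out, epe1 ranged from -1.32 to -1.14 at 24 h, -1.49 to -1.36 at 120 h, -2.19 to -2.06 at memory 120 h, 0.26 to 0.51 at recovery 24 h, -2.95 to -2.65 at the second depletion, 2.36 to 2.61 for recovery 24 h against memory 120 h, -2.28 to -2.15 in deletion biological replicate 1 and -0.85 to -0.73 for the deletion mean against 120 h.

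Counts of all genes called moved by over 1.5 times in several comparisons. Over the other settings they ran from 149 to 675 (main 440) for 48 h against 24 h, 330 to 1592 (1125) for 72 h against 48 h, 30 to 173 (81) for 96 h against 72 h, 357 to 858 (528) for 120 h against 96 h, 292 to 1054 (399) for memory 120 h, 149 to 835 (197) for recovery 24 h, 58 to 520 (156) for recovery 48 h, 1118 to 3421 (2896) for the second depletion, 225 to 645 (308) for recovery 24 h against memory 120 h, 230 to 626 (338) for recovery 48 h against 24 h, 336 to 2560 (1801) for the second depletion against recovery 24 h, 8 to 2802 (1904) for the second depletion against memory 120 h, 46 to 246 (51) between deletion replicates, 1482 to 2912 (2791) for the deletion mean against 120 h, 185 to 659 (256) and 659 to 2043 (1705) for the 120 h and 24 h differences, and 2122 to 4267 (2677) between untreated groups. The lowest count of epe1 outside prl67, 115, limits the second depletion values.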
